A study of Rattus norvegicus with 12 samples.

Results

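The effect of THZ1 on gene expression was examined in neonatal rat ventricular myocytes (NRVM) that had been stimulated with phenylephrine (PE), by comparing the PE + THZ1 libraries with the PE libraries. These were 6 of the 12 RNA-seq libraries, 3 in each group. NRVM are primary heart muscle cells, taken here from the ventricles of Sprague-Dawley pups 2 to 3 days old, with pre-plating and BrdU used to limit other and dividing cells, and kept without serum before treatment. The PE group received PE at 100 µM, and the PE + THZ1 group received the same PE after a preincubation with THZ1 at 10 nM. The remaining 6 libraries were a baseline group given vehicle and a group given THZ1 alone at 10 nM. By the labels treatment lasted 48 h, whereas the names of the PE and PE + THZ1 columns give 24 h. Neither source says whether libraries came from separate cell preparations, so p-values measure the spread between these libraries, which may be technical. Of the 15920 genes in the table, 14312 averaged 10 or more normalized counts over the 12 libraries and were compared. At this limit the nearest gene left out had a mean of 9.99 and the nearest gene kept had 10.01.

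PE is an agonist of α1-adrenergic receptors, which signal through Gq and drive hypertrophy and a stress gene program in heart muscle cells. THZ1 is a covalent inhibitor of CDK7, and also of CDK12 and CDK13. CDK7 is the kinase of the general factor TFIIH and phosphorylates the C-terminal domain of RNA polymerase II when transcription starts, while CDK12 and CDK13 act on elongating polymerase. The comparison asks which transcripts were lower and which were higher when these kinases were inhibited in stimulated cells. Since normalized counts measure relative transcript levels, a change in all transcripts together would not show in them. Genes carry Ensembl identifiers and no symbols. The reference used here has 47357 entries but lists no Ensembl identifiers, so a search of it could only match 0 of them. Genes were therefore grouped by level, by size of change, by the authors' deposited clusters and by their response to THZ1 without PE, the heart muscle label could not be checked against marker genes, and positions are not given.

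THZ1 shifted a large part of the transcriptome of PE-stimulated NRVM, in both directions and mostly by modest amounts. A total of 8832 genes, or 61.7% of those tested, differed between PE + THZ1 and PE at an adjusted p under 0.05 (limma on log2(normalized count + 1), Benjamini-Hochberg adjustment over all genes tested). Of these, 4477 genes (31.3%) were lower with THZ1 and 4355 (30.4%) were higher. In bulk RNA, fewer cells of a type and less RNA per cell cannot be told apart. The median change was -0.47 on the log2 scale for the lower genes, a 1.38-fold fall, and 0.43 for the higher genes, a 1.34-fold rise, against a median standard error of 0.07 over all genes tested. The 3 PE + THZ1 libraries lay wholly outside the range of the 3 PE libraries for 9904 genes (69.2% of those tested), below it for 5007 (35.0%) and above it for 4897 (34.2%). Replicates lay close together, with a median SD of 0.07 in log2 for PE and 0.07 for PE + THZ1. Of the 5480 genes that did not pass the test, 3727 (68.0%) had a 95% interval of the change that lay within 0.5 log2 units of 0 on both sides, and for 513 the interval still reached a change of 1 or more. The edgeR quasi-likelihood test on the recovered reads called 8789 genes, 8547 of them also called by limma in the same direction, and the DESeq2 Wald test called 8347, of which 8327 were shared in this way.

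Falls reached further than rises. Changes of at least 1 in log2 were found as falls in 772 genes (5.39% of those tested) and as rises in 467 (3.26%). In the 772 genes the PE + THZ1 level was a median of 38.4% of the PE level, and in the 467 it was 243%. The numbers parted further at larger changes. Falls of at least 1.5 were found in 303 genes and rises of that size in 104. At 2 or more there were 148 falls and 25 rises, and at 3 or more 25 falls and 1 rise. In 770 of the 772 lower genes all PE + THZ1 libraries were below all PE libraries, and in 461 of the 467 higher genes they were all above. Over all genes tested these shares were 35.0% and 34.2%. The genes were chosen by their change in these same libraries, which makes overlap unlikely, so the counts are no separate support.

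**Figure D1:**
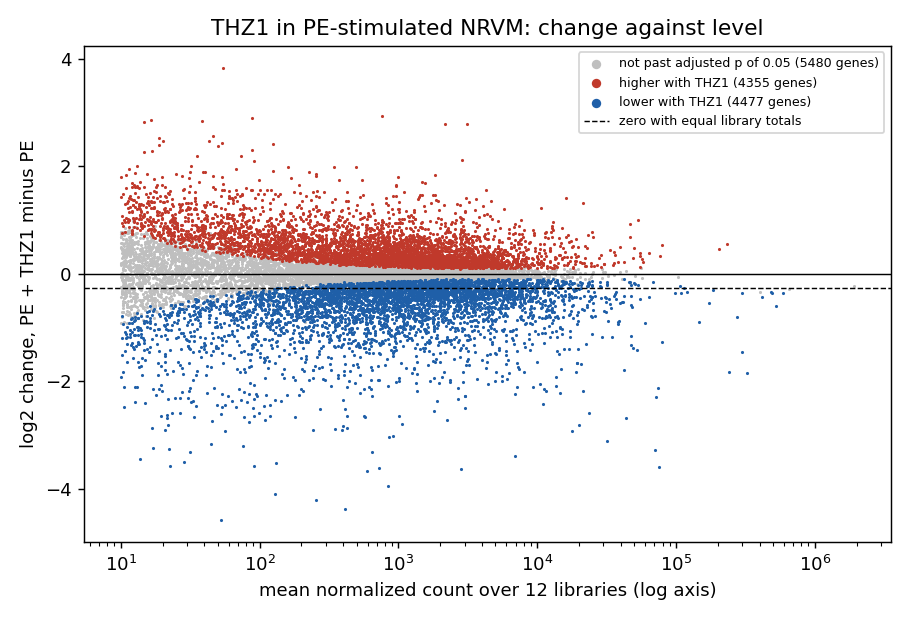
Each point is 1 of 14312 genes, with its mean normalized count over the 12 libraries on a log axis and its log2 change from PE to PE + THZ1; blue genes were lower (4477) and red genes higher (4355) at an adjusted p under 0.05, and the dashed line marks where 0 would lie with equal library totals. Blue points reach further from 0 than red ones, with 148 genes lower and 25 higher by 2 or more.

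The direction of small changes depended on whether the libraries were scaled to equal totals. The values were scaled by the authors' size factors, after which the summed normalized counts still differed. In units of 1000000 counts (M), they were 40.5, 40.3 and 40.3 M in the PE libraries and 33.4, 33.4 and 34.4 M in the PE + THZ1 libraries, and the groups did not overlap. The mean sum was 16.4% lower with THZ1 (33.8 ± 0.587 against 40.4 ± 0.131 M, SD, n = 3; exact permutation test, two-sided, p = 0.1, the smallest p that 3 libraries against 3 allow). Scaling all libraries to equal totals moved the median change of all genes up by 0.26, so that many genes with smaller falls came to lie above 0. With equal totals, 7697 genes were higher and 2271 lower, or 77.2% of the changed genes higher against 49.3% with the deposited scaling. Other scalings moved this share less, to 51.3% with TMM scaling and 56.3% with quantile normalization. The median change of all genes was 0.02 with TMM scaling and 0.05 with quantile normalization. All 2271 genes lower with equal totals were among the 4477 lower with the deposited scaling. Of the other lower genes 2090 no longer passed the test with equal totals and 116 were higher. All 4355 higher genes stayed higher, among them the 467 that rose by at least 1. Equal totals moved every gene up by nearly the same amount, so no rise could become a fall. A fall of at least 1 could not change sign either, and 764 of the 772 genes still passed the test as lower. These counts follow from the shift and are not a test of the large changes. The larger number of falls was kept only at the far end, where with equal totals 98 genes fell and 52 rose by 2 or more, while 477 fell and 948 rose by 1 or more.

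Abundant transcripts made up much of the lower sum. Summed over all genes of the table, falls in mean normalized count came to -8.94 M and rises to 2.34 M. The 10 genes with the largest falls made up 27.0% of the former, and the 100 with the largest falls made up 58.6%. These 10 genes held 14.1% of all normalized counts in the PE libraries and 9.67% in the PE + THZ1 libraries. Having been picked by this fall, they are described without a test, and their log2 changes ran from -3.59 to -0.22. Without them the PE libraries averaged a sum of 34.7 M and the PE + THZ1 libraries 30.5 M. Among the 100 most abundant genes, 64 were lower and 23 higher with THZ1, with a median log2 change of -0.33, beside a median of 0.01 over all genes tested. The size of this shift was above the 0.26 by which equal totals move each value. These genes are themselves part of those totals. With totals made equal outside them, the median change of all genes was 0.15. The difference that remains for these genes with equal totals was not tested. Their share of a library's normalized counts was 34.7% to 35.0% with PE and 29.1% to 30.8% with PE + THZ1.

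Rises of at least 1 were found mostly among weakly expressed genes, and falls of that size at all levels. The tested genes were divided into 5 bins of near equal number by their mean over all 12 libraries, numbered from the lowest. In bin 1, with means from 10.01 to 83.0, 265 genes rose and 205 fell by at least 1. In bin 2, 93 rose and 165 fell. The numbers were 44 and 152 in bin 3, 37 and 93 in bin 4, and 28 and 157 in bin 5, which began at a mean of 2465. The median mean level was 60.4 normalized counts for the 467 genes that rose by at least 1 and 409 for the 772 that fell, against 636 for all genes tested. With equal totals rises outnumbered falls of this size in bins 1 to 4, with 469 against 142 in bin 1, whereas in bin 5, 71 genes rose and 98 fell.

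Counting every changed gene whatever its size, the share that was lower climbed with level under the deposited scaling. It was 15.3% of the genes in bin 1, 28.2% in bin 2, 33.5% in bin 3, 35.5% in bin 4 and 43.9% in bin 5. The share that was higher moved less, from 24.6% in bin 1 to 34.6% in bin 4 and 30.5% in bin 5. These shares were not counted with equal totals. The median log2 change was 0.15 in bin 1 and -0.06 in bin 5 with the deposited scaling. With equal totals it was above 0 in every bin, at 0.40 in bin 1 and 0.19 in bin 5. The error of a gene's change fell along the same order, from a median standard error of 0.25 in bin 1 to 0.05 in bin 5. The median size of a change that passed the test was 0.90 in bin 1 and 0.33 in bin 5, and small changes were not detectable in weakly expressed genes at this depth.

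**Figure D2:**
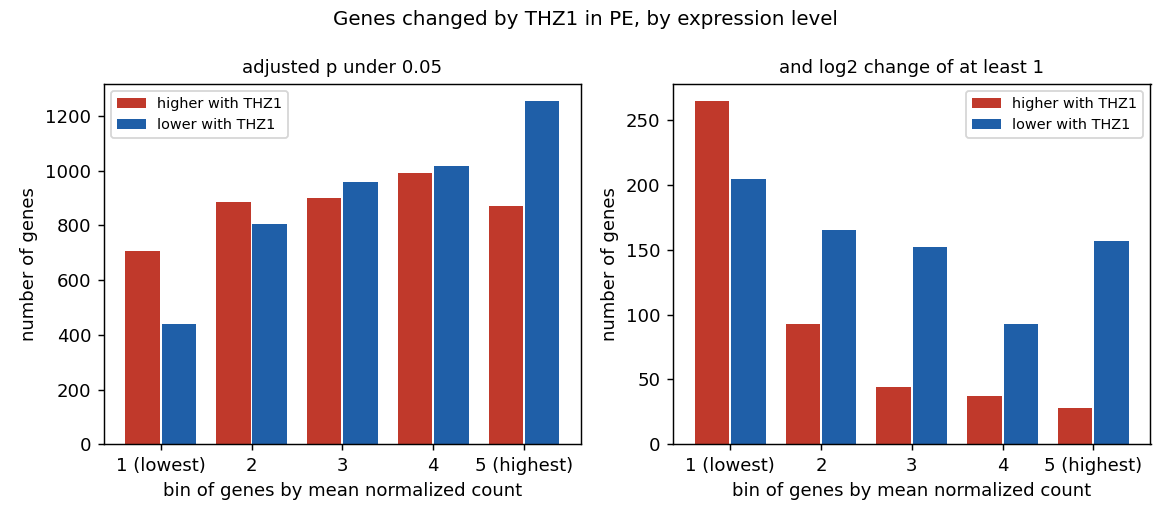
Bars give the number of genes higher (red) or lower (blue) with THZ1 in PE in each of 5 bins of the tested genes by mean normalized count, for all genes past an adjusted p of 0.05 (left) and for those that also changed by at least 1 in log2 (right). With the deposited scaling, lower genes outnumber higher ones most in bin 5, the highest (1256 against 873), and bin 1 holds 265 of the 467 rises of at least 1.

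Among genes averaging 100 or more normalized counts, the 12 largest falls with THZ1 were larger than the 12 largest rises. Genes were ranked among those averaging 100 or more normalized counts, with an adjusted p under 0.05 and no overlap between the libraries of both groups. Separation of the groups was thus a condition of the ranking. The floor of 100 lay above the median level of the 467 genes that rose by at least 1 (60.4). It lay below that of the 772 that fell (409), so it bore more on rises. Over all genes tested the largest rise was 3.82 and the largest fall -4.57, both outside this ranking. The 12 largest falls had log2 changes from -4.37 to -3.27, which left between 4.75% and 10.4% of the PE level, at mean levels from 130 to 75576 normalized counts. The 12 largest rises had changes from 1.83 to 2.94, with PE + THZ1 levels of 355% to 784% of the PE level, at means from 125 to 3097. With THZ1 alone all 12 falls were also lower, with changes from -3.65 to -0.77, while of the 12 rises 10 were higher, 1 was lower and 1 did not pass the test. Over all genes tested, 26.1% were lower and 25.8% higher with THZ1 alone. Cluster 2 of the clusters described further on held 11 of the 12 falls, and cluster 1 held 11 of the 12 rises. Of the 14312 genes tested, 3534 were in cluster 2 and 4589 in cluster 1. The clusters were built from these same libraries, so this placement is no separate support. The first 2 of each are described by identifier, and since they were ranked by this comparison their changes there describe the extremes.

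Of the genes so ranked, the largest fall was that of ENSRNOG00000014573. Its normalized counts were 1165, 1171 and 1451 in the PE libraries and 55.1, 55.8 and 69.0 in the PE + THZ1 libraries. The log2 change was -4.37 (standard error 0.13, adjusted p = 3.9e-14 from limma), a 20.7-fold fall on the log2(normalized count + 1) scale. At baseline the gene stood at 263 ± 54.6 (SD, n = 3) and with THZ1 alone at 53.1 ± 2.58, so both groups with THZ1 were below all libraries without it. PE by itself raised the gene by 2.27 (adjusted p = 3.4e-10 from limma), a value that rests on the same PE libraries, as do those of PE alone for the genes that follow. The change with THZ1 in the absence of PE was -2.27 (standard error 0.13), and the fall with PE was larger (interaction -2.10, standard error 0.19, adjusted p = 5.7e-07 from limma).

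ENSRNOG00000032924 had the next largest fall. It had 657, 773 and 822 normalized counts with PE and 31.5, 34.6 and 55.8 with PE + THZ1. It changed by -4.21 on the log2 scale (standard error 0.25, adjusted p = 1.3e-10 from limma). Baseline libraries held 151, 310 and 167 counts and THZ1 alone libraries 16.0, 12.8 and 21.5, a change of -3.52 (standard error 0.25), while PE alone raised the gene by 1.91 (adjusted p = 4.9e-06 from limma). For this gene the effects with and without PE did not differ past the threshold (interaction -0.69, 95% interval -1.43 to 0.05, adjusted p = 0.14 from limma), but the interaction passed it without baseline replicate 2 (-1.01, adjusted p = 0.0061) and without PE + THZ1 replicate 3 (-0.94, adjusted p = 0.047).

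Among the ranked genes the largest rise was that of ENSRNOG00000002302, from 125, 127 and 96.0 normalized counts in the PE libraries to 1121, 922 and 684 in the PE + THZ1 libraries. Its log2 change was 2.94 (standard error 0.14, adjusted p = 6.1e-12 from limma). Baseline libraries stood between these groups or beside the lowest PE + THZ1 library, at 562, 582 and 680, and THZ1 alone libraries were the highest, at 1386, 1434 and 1481. PE alone lowered the gene, with a change of -2.39 (adjusted p = 2.2e-10 from limma). THZ1 raised it by 1.24 without PE (standard error 0.14), less than with PE (interaction 1.70, standard error 0.19, adjusted p = 5.4e-06 from limma).

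ENSRNOG00000008423 rose almost as far, with 410, 441 and 421 normalized counts with PE against 3209, 3012 and 2641 with PE + THZ1. It changed by 2.79 on the log2 scale (standard error 0.08, adjusted p = 1.4e-14 from limma). Levels were 2030 ± 249 (SD, n = 3) at baseline and 3211 ± 33.2 with THZ1 alone, a rise of 0.67 without PE (standard error 0.08), and the change with PE alone was -2.25 (adjusted p = 9.9e-13 from limma). The difference between the effects with and without PE was 2.12 (standard error 0.11, adjusted p = 2.3e-09 from limma).

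**Figure D3:**
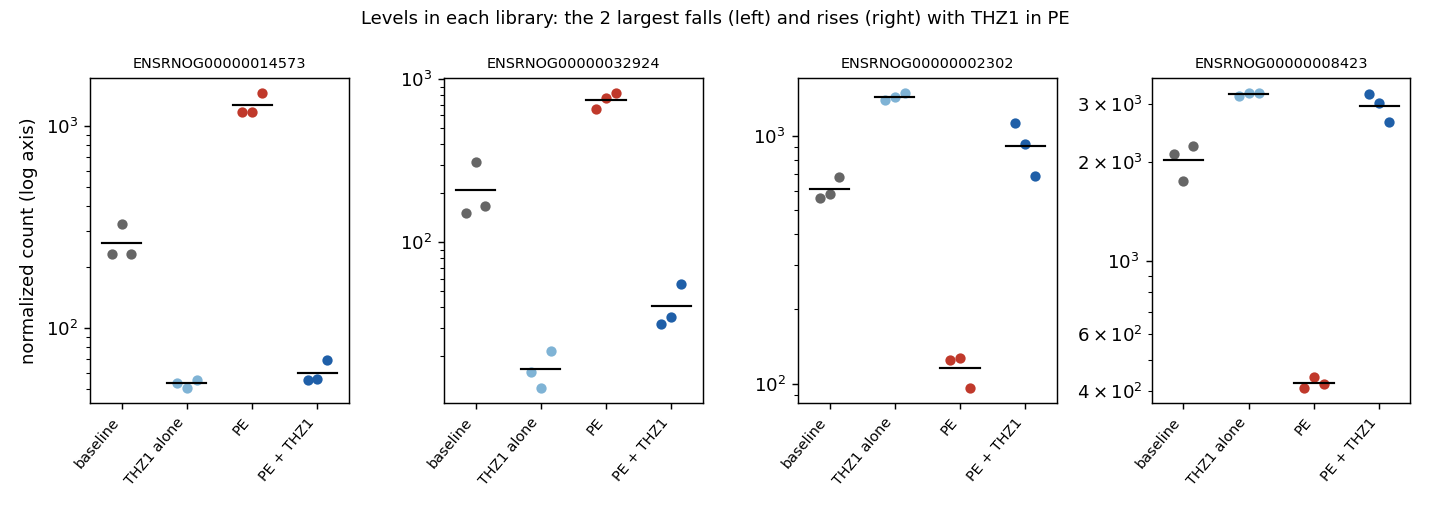
Normalized counts (log axes that differ between panels) of 4 genes in each of the 12 libraries, with points for libraries and black lines for group means. In the panels on the left PE libraries are highest and both groups with THZ1 lowest, and in those on the right PE libraries are lowest, with 96.0 to 127 counts for ENSRNOG00000002302 and 410 to 441 for ENSRNOG00000008423.

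In the deposited file every gene has a number from 1 to 6 for its cluster, which the authors built from the row-scaled values of these same libraries, so the clusters describe how the change was spread and are not a test of it. The column has no heading and is taken to hold these clusters. They are named here by its numbers, which are not to be matched with cluster numbers that the authors use elsewhere. The 2 largest clusters held most of the large changes. In cluster 2 (3534 genes tested) 3018 genes (85.4%) were lower with THZ1 in PE and 5 were higher, with a median log2 change of -0.46 ± 0.0140 (SD over the 3 PE + THZ1 libraries). This cluster held 628 of the 772 genes that fell by at least 1, and its summed normalized counts changed by -6.55 M. The sums changed by 1.84 M in cluster 1, -2.11 M in cluster 3 and 0.31 M in cluster 5. In clusters 4 and 6 they changed by -0.005 and -0.10 M. In cluster 1 (4589 genes) 3246 genes (70.7%) were higher and 3 lower, with a median of 0.35 ± 0.0219, and the cluster held 387 of the 467 genes that rose by at least 1.

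The other clusters showed smaller shifts. In cluster 3 (2195 genes) 1069 genes (48.7%) were lower and 100 higher, with a median of -0.21, and 127 fell by at least 1. In cluster 5 (1915 genes) 800 genes (41.8%) were higher and 25 lower, with a median of 0.19, and 73 rose by at least 1. Cluster 6 (748 genes) had 212 lower (28.3%) and 4 higher genes (0.535%) and a median of -0.13. Its share of lower genes was slightly under the 31.3% of all genes tested, and its share of higher genes was far under their 30.4%. Cluster 4 (1331 genes) had 150 lower (11.27%) and 200 higher genes (15.03%), and a median of 0.00. Both of these shares were well below those of all genes tested. With equal library totals the medians of clusters 3 and 6 turned positive, at 0.05 and 0.13, while that of cluster 2 stayed negative at -0.20 and those of clusters 1 and 5 rose to 0.60 and 0.45.

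**Figure D4:**
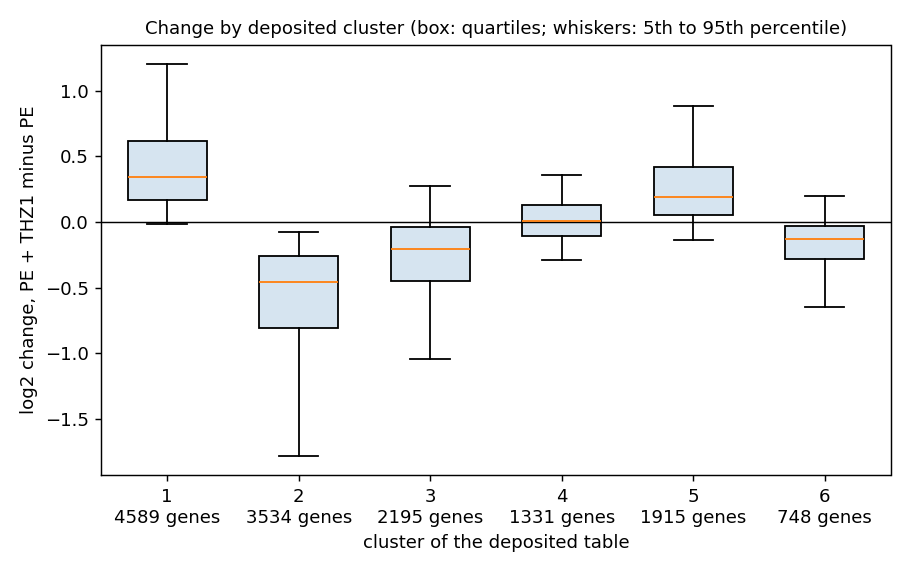
Log2 change from PE to PE + THZ1 for the tested genes of each deposited cluster, with the median as a line, quartiles as the box and the 5th to 95th percentile as whiskers. Genes of cluster 2 lie almost wholly below 0 (median -0.46) and most of those of cluster 1 above it (median 0.35), while cluster 4 is centred near 0.

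The effect of THZ1 in stimulated cells was set beside its effect in cells without PE, THZ1 alone against baseline, which rests on the other 6 libraries. Most genes strongly lowered in PE were also lowered without it. Of the 772 genes that fell by at least 1, 704 (91.2%) were lower with THZ1 alone, 1 was higher and 67 did not pass the test, beside the 26.1% of all genes tested that were lower with THZ1 alone. For the 467 genes that rose by at least 1, 261 (55.9%) were higher with THZ1 alone, 9 were lower and 197 did not pass, beside 25.8% of all genes that were higher. Over all 14312 genes the log2 changes with and without PE had a Pearson r of 0.72 and a Spearman rho of 0.64, given as a description across genes that were measured in the same libraries and are not independent. In 424 genes both comparisons passed the test in opposite directions, of which 220 were lower with THZ1 in PE and higher without PE, and 204 the reverse. Both passed in the same direction in 5122 genes.

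The size of the THZ1 effect differed with and without PE for 4603 genes, or 32.2% of those tested (limma, interaction term, adjusted p under 0.05). The interaction was negative in 2616 genes (18.3%) and positive in 1987 (13.9%). With equal library totals 4014 genes passed, and the interaction of each gene described by identifier moved up. It went from -2.10 to -1.99 for ENSRNOG00000014573 and from 2.12 to 2.23 for ENSRNOG00000008423. How the signs split with equal totals was not counted. Among the 772 genes that fell by at least 1 in PE it was negative in 418 (54.1%), meaning a more negative change in PE than without it, and positive in 12. The other 342 had no difference past the threshold. Among the 467 genes that rose by at least 1 it was positive in 268 (57.4%) and negative in 2. These sets were chosen by their change in PE, and that choice alone favours a larger effect there. The median log2 change of the 772 genes was -1.36 with PE and -0.98 without. When genes were instead chosen by a fall of at least 1 with THZ1 alone (512 genes), the median was -1.34 without PE and -1.39 with PE. Of these genes 449 were also lower with THZ1 in PE and 7 were higher. For the 146 genes that rose by at least 1 with THZ1 alone the medians were 1.33 without PE and 1.16 with PE, and 108 were also higher in PE.

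Over the deposited clusters, cluster 2 had 1728 genes (48.9%) with a negative interaction and 26 (0.736%) with a positive one, beside 18.3% and 13.9% of all genes tested. Its median log2 change with THZ1 was -0.46 in PE and -0.20 without. In cluster 3 the order was the other way, with a median of -0.21 in PE and -0.35 without, and its 353 positive interactions (16.1%) were near the share of all genes, beside 58 negative ones (2.64%). Cluster 5 had 569 positive (29.7%) and 14 negative (0.731%) interactions, with medians of 0.19 in PE and -0.03 without. Cluster 1 had 972 positive (21.2%) and 402 negative (8.76%) interactions and medians of 0.35 in PE and 0.27 without. Cluster 4 had 59 positive (4.43%) and 274 negative (20.6%), with medians of 0.00 in PE and 0.10 without. Cluster 6 had 8 positive (1.07%) and 140 negative (18.7%), with medians of -0.13 in PE and 0.02 without. These splits by sign rest on the deposited scaling. They were not counted with equal totals, which moved the interactions of the identified genes up, so the small leans of clusters 4 and 6 may depend on scaling. Baseline libraries were less alike than the others, with a median SD of 0.11 in log2, and the number of genes with an interaction was 6112 without baseline replicate 2.

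**Figure D5:**
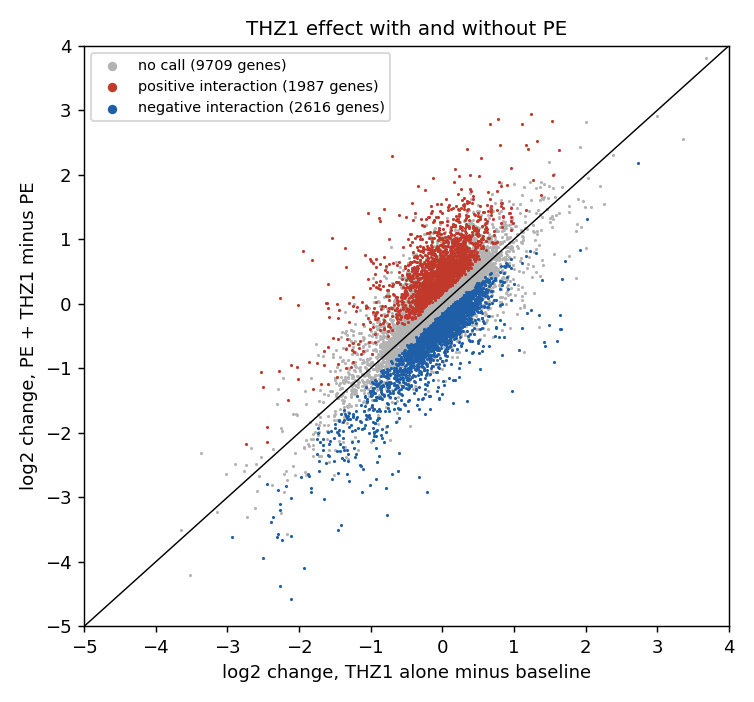
Log2 change with THZ1 in PE (vertical axis) against the change with THZ1 alone (horizontal axis) for 14312 genes, with the line of equal effects. Genes with a negative interaction (blue, 2616) lie below the line and those with a positive one (red, 1987) above it, and most strongly lowered genes sit at the lower left, below 0 on both axes.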

How the data were processed

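RNA-seq was analysed in NRVM in 4 groups of 3 libraries. The authors divided gene read counts by 1 DESeq2 size factor per library, estimated over the rat samples together, and deposited this signal, which has no values below 0. By their methods and processing notes, single-end reads were aligned to rn5 with TopHat2 2.1.1 and counted with htseq-count using strand. An unnamed column deposited with these values is taken to be each gene's cluster. Whole reads were recovered from the steps of the values (100% whole within 0.01 of a read), giving 30458862 to 45885754 reads per library, and every gene had at least 1 read in each. Genes without a read in some library are thus absent from the values, and changes to or from 0 reads could not be seen.

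Changes were tested on log2(normalized count + 1) with limma 3.58.1 (R 4.3.3). This scale understates the change of low genes. All 12 libraries entered 1 fit, so comparisons share its estimate of the spread, with a prior variance that follows expression and two-sided tests. Tested on simulated reads of 14312 genes for PE + THZ1 against PE, with 200 genes changed, it called 81.4% of those changed by 0.5 in log2, 93.2% by 1 and 100% by 2, and 6 unchanged genes. Far fewer genes were changed there than differed in the data, and the scaling of libraries was taken as known. Its 6 false calls therefore do not give the error rate of this comparison. edgeR 4.0.16 and DESeq2 1.42.0 were run on recovered reads. Figures used matplotlib 3.10.9 and tables pandas 2.3.3. Deviations from group means did not pair libraries by replicate number in any 2 of the 4 groups. Genes to be named were the largest changes, those of 32 gene lists and those the paper names. As no identifier could be paired with a symbol, the lists could not be applied and 2 identifiers are printed per direction. The comparison and lists were chosen with earlier results of these data known.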

Additional observations from a re-analysis of the deposited data

Results flagged for a closer look

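The effect of THZ1 differed between cells with and without PE, by a test of the difference itself (limma, interaction term, adjusted p under 0.05), in 4603 genes. Of the 4 genes described by identifier, 3 were among them. The interaction was -2.10 for ENSRNOG00000014573, 1.70 for ENSRNOG00000002302 and 2.12 for ENSRNOG00000008423 on the log2 scale, and for each the effect had the same sign with and without PE and was larger with PE. These genes were ranked by their change in PE, which favours a larger effect there. As each group held 3 libraries, single outlying libraries were not tested for.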

How the results depend on the processing

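Scaling to equal library totals moved the numbers of higher and lower genes most. Leaving out baseline replicate 2 moved the number with an interaction most, from 4603 to 6112. Set to equal library totals, the values put 7697 genes higher with THZ1 in PE and 2271 lower, of which 948 and 477 changed by at least 1 in log2. A minimum mean of 50 left 254 genes higher by at least 1, since fewer genes were tested. The other 144 counts of genes under alternatives were within 1.5 times the reported ones. Equal totals without the 100 most abundant genes, chosen after seeing the data, made 67.1% of the changed genes higher, with a median change of 0.15. With each library left out in turn, 7971 to 9412 genes changed, 3882 to 4653 were higher and 4089 to 4759 lower, 453 to 503 were higher and 741 to 813 lower by at least 1, and 3767 to 6112 had an interaction. With the replicate number as a block 8945 genes changed, 8770 of them shared in direction with the fit without it, and 4885 had an interaction. Libraries of the same number in PE and PE + THZ1 had deviations with Pearson r of -0.04, -0.03 and 0.01 across genes. In baseline and THZ1 alone r ran from -0.02 to 0.10, and between no 2 of the 4 groups was it over 0.1 for all 3 numbers. The changes of the 4 identified genes with THZ1 in PE passed the test in the same direction under all alternatives run, and the interaction of 1 of them passed it only with baseline replicate 2 or PE + THZ1 replicate 3 left out. The median changes of clusters 3 and 6 turned positive with equal totals (0.05 and 0.13), and that of cluster 6 also with totals equal outside the 100 most abundant genes (0.02). Alternatives for the gene lists were not run, as the lists could not be applied. Depth limits the low genes, where the median standard error was 0.25.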
